A study of Homo sapiens with 2 samples.

Results

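The genes described here encode the 6 subunits of the origin recognition complex (ORC1 to ORC6) and 3 proteins that control the loading of the replicative helicase, CDC6, CDT1 and geminin (GMNN). They were chosen by name, as 9 of the 60623 named genes in a deposited RNA-seq count table, and all 9 were among the 13217 genes measured at a mean of at least 1 CPM (counts scaled to a common library size). The cells were HCT116, a human colon carcinoma line whose genotype is labelled WT in both cultures. One culture (siKAT7) received an siRNA against KAT7 and the other (siControl) a non-specific siRNA, both with a Lipofectamine reagent. KAT7, also named HBO1 and called so in the column header of the siKAT7 library, is a MYST-family lysine acetyltransferase. The study asked what its knockdown does to transcription. The time between transfection and harvest, and the number of cultures behind each library, were not given in the sources used here. Each group was 1 library, so no value below has a replicate and no difference could be set against the spread between cultures.

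The origin recognition complex binds replication origins and, with CDC6 and CDT1, loads the MCM2-7 helicase in G1, a step called licensing. Geminin binds CDT1 in S and G2 phase and blocks further loading, and CDT1 itself is degraded in S phase, so that each origin fires once per cycle. KAT7 entered this field as a binding partner of ORC1, and it acetylates histones at origins with CDT1 as a partner. CDC6, CDT1, ORC1 and GMNN are widely described as targets of the E2F transcription factors, which act at the transition from G1 to S phase.

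KAT7 mRNA was lower in siKAT7, by less than 1.5-fold. It had 287.22 expected counts in siKAT7 and 442.94 in siControl, or 12.7 and 18.2 CPM, a log2 ratio of -0.52 with a 95% counting interval of -0.74 to -0.31. Of the genes averaging 10 to 30 CPM, as KAT7 does, 95% had log2 ratios between -0.54 and 0.51, so KAT7 lay just inside that range. With total-count scaling its log2 ratio was -0.63, past 1.5-fold. Named genes summed to 23533186 expected counts in siKAT7 and 23450331 in siControl. The colon epithelial markers EPCAM, KRT8, KRT18, CDH1 and CDX2 were measured, and their CPM summed with VIL1 and KRT20, nearly all from KRT8 and KRT18, was 8473 in siKAT7 and 8299 in siControl. All 5 had log2 ratios above 0, among them CDX2 at 0.31 (0.09 to 0.52) and CDH1 at 0.21 (0.13 to 0.29), while with total-count scaling EPCAM, KRT8 and KRT18 lay below 0. VIL1 and KRT20 were under 1 CPM. Of the fibroblast markers COL1A1 alone was measured, at 31.1 CPM in siKAT7 and 31.2 in siControl. COL1A2 had 1 count in siKAT7 and 0 in siControl, DCN had 1 in each library, and LUM was at 0. Blood markers summed to 0.926 CPM in siKAT7 and 0.493 in siControl and endothelial markers to 0.970 in siKAT7 and 0.822 in siControl, with PTPRC, HBB, PECAM1 and CDH5 at 0. The proliferation markers MKI67, TOP2A and CCNB1 summed to 187 CPM in siKAT7 and 208 in siControl, and all 3 had log2 ratios below 0, from -0.41 to -0.05. Whether a shift in the share of cycling cells took part in the values below was not tested, and in bulk RNA fewer expressing cells and less RNA per cell cannot be told apart.

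Promoter windows from RefSeq (GRCh38.p14, 250 bases before to 50 after a RefSeq start) were found for all 9 genes. There were 11 windows in all because ORC4 and GMNN have a pair each. They are shown because licensing genes are textbook E2F targets. The E2F letters searched on both strands were TTTCCCGC, TTTCGCGC, TTTGCCGC and TTTGGCGC. They were present in 1 window each of ORC3, CDC6, CDT1 and GMNN, and 3.31% of all 35116 windows held 1 of these forms. The stretches around them are given 5′ to 3′ on the gene's strand, with E2F letters (read on either strand) and CCAAT or its reverse in capitals. The ORC3 stretch is chr6:87590083-87590170, that of CDC6 chr17:40287846-40287928, that of CDT1 chr16:88803714-88803801 and that of GMNN chr6:24775293-24775380, all on the forward strand.
ORC3: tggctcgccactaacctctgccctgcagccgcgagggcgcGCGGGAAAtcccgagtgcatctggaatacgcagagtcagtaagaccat
CDC6: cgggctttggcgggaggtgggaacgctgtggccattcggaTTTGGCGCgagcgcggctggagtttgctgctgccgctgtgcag
CDT1: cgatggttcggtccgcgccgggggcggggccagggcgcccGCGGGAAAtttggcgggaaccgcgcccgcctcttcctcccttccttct
GMNN: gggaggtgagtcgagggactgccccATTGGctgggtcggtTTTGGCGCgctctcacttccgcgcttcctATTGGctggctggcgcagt

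Relative to the RefSeq start of its window, the match in ORC3 began 12 bases before and that in CDT1 35 bases before. The GMNN match began 80 bases before its RefSeq start and the CDC6 match 7 bases after. These starts differ from the GENCODE gene starts given below, and all 4 stretches lie downstream of the GENCODE starts. The windows of ORC1, ORC2, ORC4, ORC5 and ORC6 held none of the 4 forms. ORC6, the ORC gene with the most counts, had a pair of CCAAT letters in opposite directions in its window at chr16:46689409-46689708 (forward strand), in capitals here.
ORC6: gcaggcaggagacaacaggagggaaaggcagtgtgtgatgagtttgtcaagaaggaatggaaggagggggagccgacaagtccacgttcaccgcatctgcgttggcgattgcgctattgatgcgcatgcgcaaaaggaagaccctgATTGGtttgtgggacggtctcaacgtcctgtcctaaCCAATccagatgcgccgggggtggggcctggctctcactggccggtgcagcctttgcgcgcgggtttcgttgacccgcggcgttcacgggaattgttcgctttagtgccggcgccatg

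CCAAT on either strand was present in 6 of the 11 windows, against 34.6% of all windows. The 6 were those of ORC1, ORC2, ORC3, ORC6, CDC6 and 1 of GMNN. A pair in opposite directions was not particular to ORC6. The CDC6 window held 3 matches, in both directions and outside the stretch shown, and the GMNN window held 2 in the same direction. The cell cycle homology letters TTTGAA and TTTAAA, which do not overlap CCAAT, were in 0 of the 11 and in 24.0% of all windows. GC content ran from 55.3% in the ORC1 window to 74.3% in that of CDT1, with a median of 58.7% over all windows. A match is a run of letters and not a bound site, and no match says only that these letters are not in the window.

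All 9 genes are protein-coding. In GENCODE 29 on GRCh38, ORC1 spans chr1:52372829-52404459, ORC2 chr2:200908973-200963680, ORC4 chr2:147930397-148021604 and ORC5 chr7:104126341-104208047, all on the reverse strand. On the forward strand ORC3 spans chr6:87590067-87667453, ORC6 chr16:46689643-46698394, CDC6 chr17:40287633-40304657, CDT1 chr16:88803213-88809258 and GMNN chr6:24774931-24786099. The counts are per gene and do not separate transcripts, of which ORC4 has 16 annotated and ORC1 has 2.

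CDT1 was by far the most abundant of the 9 transcripts. In CPM per kilobase of the longest annotated transcript it reached 68.4 in siKAT7 and 63.9 in siControl. GMNN followed, at 8.60 in siKAT7 and 10.0 in siControl, and ORC6 at 7.51 in siKAT7 and 9.73 in siControl. CDC6 had 4.84 in siKAT7 and 4.65 in siControl, also in CPM per kilobase. The remaining ORC subunits were lower, with ORC1 at 2.67 in siKAT7 and 2.42 in siControl and ORC4 lowest at 0.861 in siKAT7 and 0.900 in siControl.

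By the longest transcript, the order of levels per length was the same in both libraries, CDT1, GMNN, ORC6, CDC6, ORC1, ORC3, ORC2, ORC5 and ORC4. The counting intervals of GMNN and ORC6 overlapped in each library, as did those of ORC3 and ORC2 and those of ORC2 and ORC5. ORC1 stood above ORC3 beyond its counting interval in siKAT7 (2.30 to 3.07 CPM per kilobase for ORC1 against 1.33 to 2.02 for ORC3) but not in siControl (2.09 to 2.79 against 1.75 to 2.49). ORC6 made up 48.1% of the summed level per length of the 6 subunits in siKAT7 and 52.1% in siControl, and ORC1 made up 17.1% in siKAT7 and 12.96% in siControl. These levels depend on the length used. With the gene length of the deposited table, 1948 bases for CDC6 against 4810 for its longest transcript, CDC6 had 11.95 CPM per kilobase in siKAT7 and 11.5 in siControl and ranked next to CDT1. With that length ORC2 stood above ORC5 in siKAT7 and below it in siControl. Over the union of annotated exons ORC6 had 4.14 CPM per kilobase in siControl, GMNN 5.11 and ORC5 0.960, against 9.73, 10.0 and 1.75 with the longest transcript. Over that union ORC6 stood above CDC6 in siControl (4.14 against 4.02) and below it in siKAT7 (3.19 against 4.19). ORC3 likewise stood above ORC2 in siControl and below it in siKAT7.

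**Figure D1:**
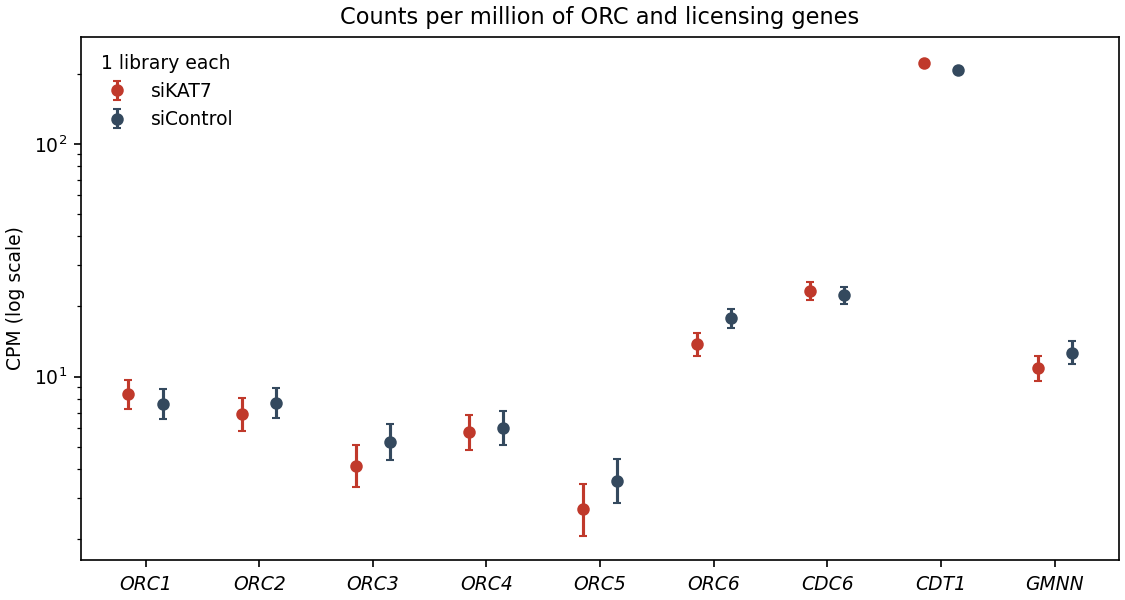
CPM on a log scale for each of the 9 genes, with siKAT7 to the left of siControl and 1 library each. Bars are exact 95% Poisson intervals and cover counting error alone; CDT1 lies near 200 CPM in both libraries and every other gene lies below 30.

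The clearest difference among the ORC subunits was in ORC6, the smallest subunit, which also has a role in cytokinesis. ORC6 had 311.51 expected counts in siKAT7 and 433.95 in siControl, or 13.8 and 17.8 CPM. The log2 of siKAT7 over siControl was -0.37, and its counting interval excluded 0 at the 95% level (-0.59 to -0.16) and at the 99% level (-0.66 to -0.10). That is 77.2% of the siControl level. Of all measured genes, 11.2% had a lower log2 ratio than ORC6.

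ORC3 and ORC5, which sit in the core of the complex with ORC2 and ORC4, had ratios of like size on fewer counts. ORC3 had 94 counts in siKAT7 and 128 in siControl, or 4.15 and 5.26 CPM, a log2 ratio of -0.34 (-0.74 to 0.05). ORC5, an ATPase-family subunit, had 61 counts in siKAT7 and 87 in siControl, or 2.69 and 3.57 CPM, a log2 ratio of -0.41 (-0.91 to 0.08). Both intervals included 0, so with this scaling neither difference could be told from counting error at this depth. With total-count scaling the intervals were -0.850 to -0.055 for ORC3 and -1.01 to -0.029 for ORC5. Both then lay wholly below 0, as did those of 35.6% of all measured genes.

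ORC2 had 155.97 expected counts in siKAT7 and 187.96 in siControl, or 6.88 and 7.72 CPM, a log2 ratio of -0.17 (-0.48 to 0.15). ORC4, another ATPase-family subunit, had 131.4 in siKAT7 and 146.97 in siControl, or 5.78 and 6.04 CPM, a log2 ratio of -0.06 (-0.42 to 0.29). For these subunits a difference was not detectable at this depth. Counts of ORC2, ORC4 and ORC6 were not whole, because RSEM divides reads that fit more than 1 gene model. The 6 pseudogene entries that the table describes as copies of ORC subunits or GMNN had 0 counts in both libraries.

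ORC1 was the ORC subunit with a ratio above 0. It is the subunit whose protein level varies over the cell cycle in human cells and the one known to bind KAT7. ORC1 had 191 counts in siKAT7 and 186 in siControl, or 8.42 and 7.64 CPM. This gave a ratio of 0.14 on the log2 scale (-0.16 to 0.44), so the interval included 0. Of all measured genes, 69.5% had a lower ratio.

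The 6 subunits together had 945 expected counts in siKAT7 and 1170 in siControl, or 41.7 and 48.1 CPM. The log2 ratio of the sum was -0.21 (-0.33 to -0.08), and that of ORC2 to ORC5 summed was -0.21 (-0.40 to -0.03). The median over the 6 subunits was -0.25 (-0.17 without ORC5, the subunit with the fewest counts), with 5 of 6 below 0, against a median of -0.0048 over all measured genes, of which 50.7% lay below 0.

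The loading factors CDC6 and CDT1 had ratios near 0. CDC6, the ATPase that joins ORC to recruit the helicase, had 528 counts in siKAT7 and 544 in siControl, or 23.3 and 22.4 CPM, a log2 ratio of 0.06 (-0.12 to 0.23). CDT1, which escorts MCM2-7 to the origin, had 5024 counts in siKAT7 and 5042 in siControl, or 222 and 207 CPM. Its log2 ratio was 0.10 with a narrow interval of 0.04 to 0.15, but with libraries scaled by total counts it was -0.010 (-0.07 to 0.05), and that of CDC6 was -0.05. The direction of both genes thus depended on the scaling.

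Geminin had 246 counts in siKAT7 and 308 in siControl, or 10.8 and 12.7 CPM. On the log2 scale its ratio was -0.22 (-0.47 to 0.02, an interval that includes 0), and with total-count scaling it was -0.33 (-0.58 to -0.08). Of all measured genes, 22.0% had a lower ratio than GMNN. Total-count scaling moved the median of all measured genes by -0.11 on the log2 scale.

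**Figure D2:**
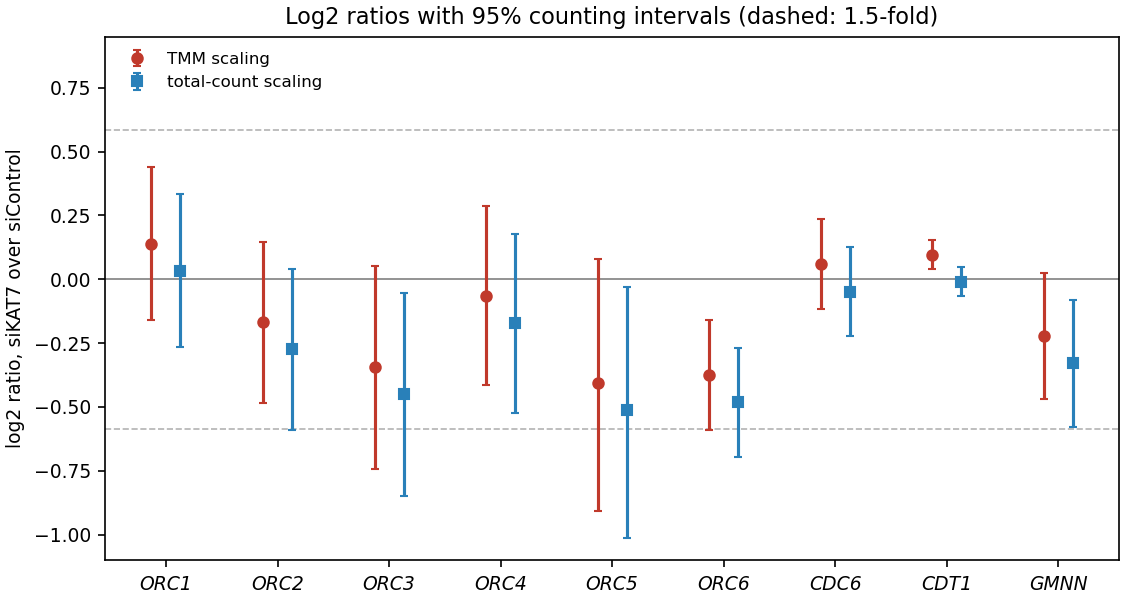
Log2 ratios of siKAT7 over siControl for the 9 genes with 95% counting intervals, under TMM and under total-count scaling; dashed lines mark 1.5-fold. ORC6 lies below 0 under both scalings, and CDC6 and CDT1 change sign between them.

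None of the 9 genes was 1.5-fold different with an interval that excluded 0. Over all measured genes 3.91% were lower by that rule in siKAT7 and 3.92% were higher. With a fold limit of 5 to 4, ORC6 passed, as 1 of 9, against 10.9% of all genes that were lower by that rule. An interval wholly below 0 was found for 1 of the 9 (ORC6), against 22.0% of all genes, and wholly above 0 for 1 (CDT1), against 23.0%. With total-count scaling the intervals of ORC3, ORC5, ORC6 and GMNN lay wholly below 0, which is 4 of 9 against 35.6% of all genes. With 9 genes the counts of 0 and 1 lie near or below these background shares.

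Depth set the width of the counting intervals. The counting interval of ORC5 spanned 0.99 on the log2 scale, that of ORC6 0.43 and that of CDT1 0.11. ORC1 to ORC5 belong to the 3123 genes averaging 3 to 10 CPM, of which 95% had log2 ratios between -0.74 and 0.76. ORC6, CDC6 and GMNN belong to the 3159 genes of 10 to 30 CPM, with a range of -0.54 to 0.51, and CDT1 to the 1283 genes of 100 to 300 CPM, with a range of -0.33 to 0.48. All 9 genes lay inside the range of their class.

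**Figure D3:**
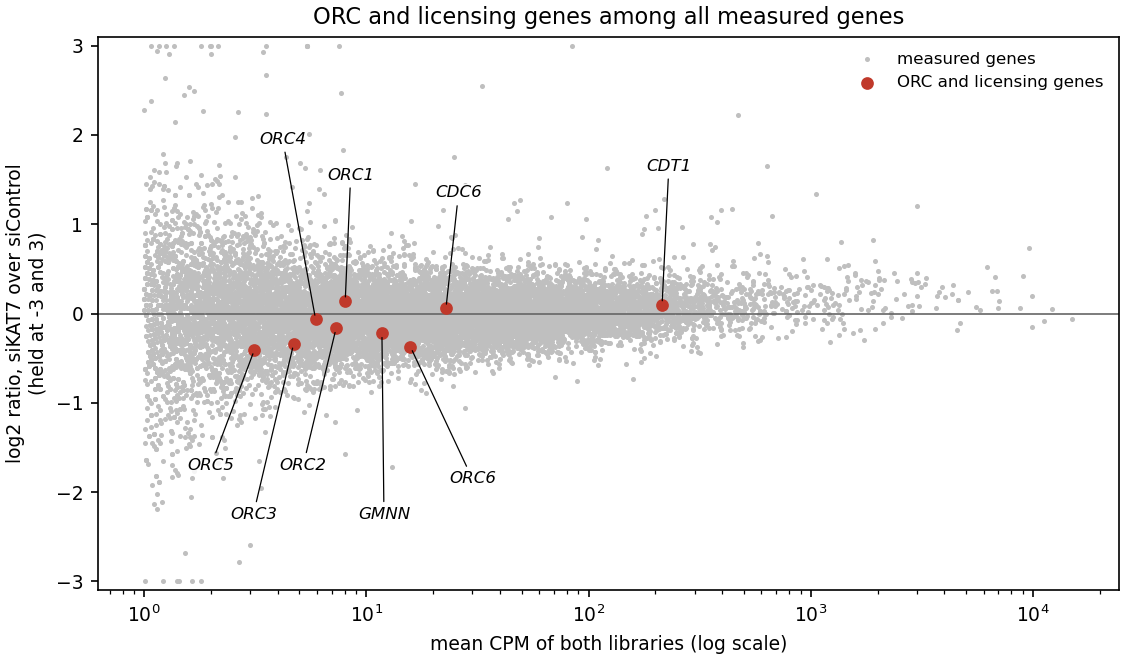
Log2 ratio of siKAT7 over siControl against mean CPM on a log scale, with each measured gene as a grey point and the 9 licensing genes in red; ratios beyond the axis are drawn at its edge. All 9 genes lie inside the cloud of genes of like expression, ORC5, ORC6 and ORC3 toward its lower side.

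In the authors' deposited table the comparison gave ORC6 a log2 fold of -0.48 with an adjusted p of 5.51e-05, and GMNN -0.33 with an adjusted p of 0.0319. The other adjusted p-values in the authors' deposited table ran from 0.0736 for ORC3 to 1 for ORC1 and CDT1. These p-values compare 2 libraries and not the conditions, and the folds there follow total counts.

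Ratios between genes of the same library do not depend on how libraries are scaled. The ratios of ORC6 and GMNN to CDT1 were lower in siKAT7, beyond their counting intervals. Geminin counts per CDT1 count were 0.0490 in siKAT7 and 0.0611 in siControl. The log2 of the ratio of these ratios was -0.32, with an exact conditional 95% interval of -0.57 to -0.07. ORC6 counts per CDT1 count were 0.0621 in siKAT7 and 0.0861 in siControl, a log2 difference of -0.47 (-0.69 to -0.25). Relative to CDT1, ORC3 had -0.44 (-0.84 to -0.04) and ORC5 -0.51 (-1.01 to -0.015), while the intervals of ORC1, ORC2, ORC4 and CDC6 included 0. CDT1 itself was at -0.010 with total-count scaling, so ratios to CDT1 lie close to the total-count ratios. With that scaling 35.6% of all measured genes had an interval wholly below 0. The share of all genes with an interval below 0 relative to CDT1 was not computed.

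CDC6 counts per ORC count, summed over the 6 subunits, were 0.559 in siKAT7 and 0.465 in siControl, a log2 difference of 0.27 (0.05 to 0.48). Within the complex, ORC1 counts per count of ORC2 to ORC5 were 0.432 in siKAT7 and 0.338 in siControl. The log2 difference was 0.35, with an interval from 0.00043 to 0.71 that barely excluded 0. ORC6 per count of ORC2 to ORC5 was 0.706 in siKAT7 and 0.789 in siControl, a log2 difference of -0.16 (-0.44 to 0.12). CDC6 per CDT1 count was 0.105 in siKAT7 and 0.108 in siControl, a log2 difference of -0.04 (-0.22 to 0.15).

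Of the 36 pairs that the 9 genes form, 6 had an interval that excluded 0. They were CDT1 with ORC3, ORC5, ORC6 and GMNN, ORC6 with CDC6, and ORC1 with ORC6. Among the 15 pairs of ORC subunits, ORC1 over ORC6 was the 1 such pair, at 0.612 in siKAT7 and 0.429 in siControl, a log2 difference of 0.51 (0.14 to 0.88). The intervals are not corrected for the number of pairs, and pairs that share a gene share its counts. The share over pairs of all measured genes was not computed, so these counts describe the pairs and set them apart from no others.

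**Figure D4:**
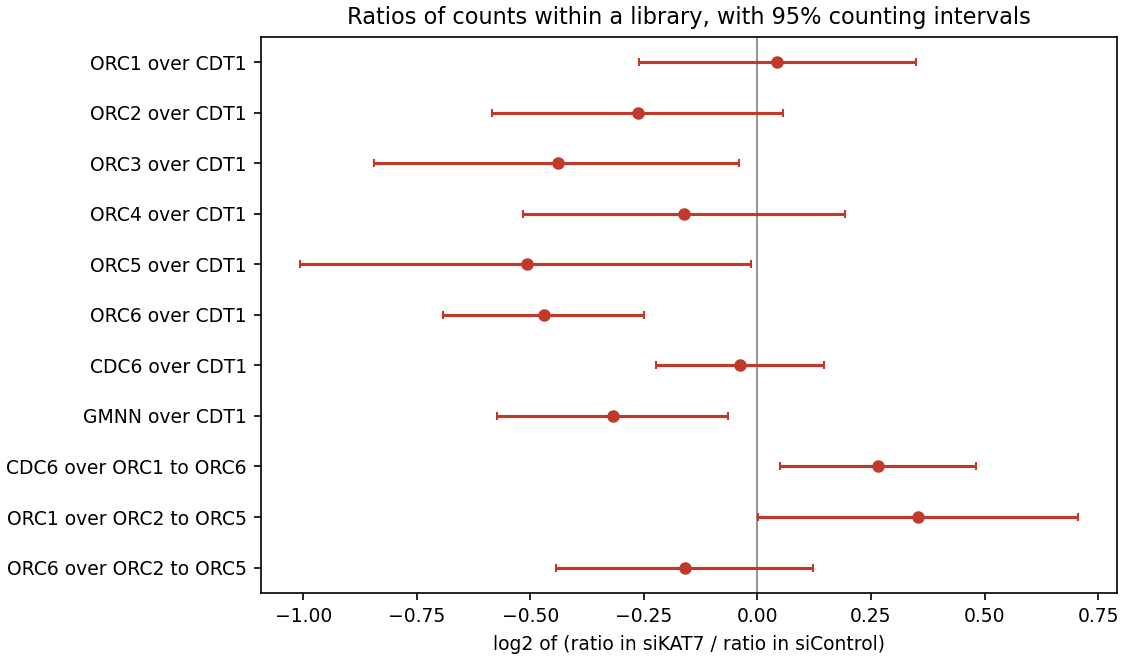
Log2 of the ratio of 2 genes' counts in siKAT7 over the same ratio in siControl, with exact conditional 95% intervals. ORC3, ORC5, ORC6 and GMNN lie below 0 relative to CDT1, and CDC6 over the ORC sum lies above 0.

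The domain annotation in the count table divides the 9 proteins. ORC1, ORC4, ORC5 and CDC6 carry AAA ATPase domains, the fold of the machinery that closes the helicase ring on DNA, and the other 5 have none listed. The log2 ratios of the 4 AAA genes ran from -0.41 (ORC5) to 0.14 (ORC1) and those of the other 5 from -0.37 (ORC6) to 0.10 (CDT1). The 2 ranges overlapped almost wholly. The 4 genes with E2F letters in a window had log2 ratios of -0.34 (ORC3), -0.22 (GMNN), 0.06 (CDC6) and 0.10 (CDT1). With total-count scaling these were -0.45, -0.33, -0.048 and -0.010, all below 0, as were 65.9% of all measured genes. The median of all measured genes was then -0.11, and CDC6 and CDT1 lay above it.

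The genes that act with these factors were read from lists chosen by role, to be set beside all measured genes, whose median was -0.0048, with 50.7% below 0 and 3.91% lower by the 1.5-fold rule. All 8 measured genes of the MCM helicase and its loading partners had log2 ratios below 0, with a median of -0.29. MCM4, a helicase subunit, was 1.5-fold or more lower, at 1209 counts in siKAT7 and 2129 in siControl, a log2 ratio of -0.71 (-0.82 to -0.61). MCM2, the subunit that binds histones and KAT7, was at -0.56 (-0.63 to -0.49), and MCMBP, which binds free MCM subunits, at -0.43 (-0.55 to -0.31). LRWD1, which tethers ORC to chromatin, had -0.03 (-0.11 to 0.06). In the same libraries the proliferation markers TOP2A and CCNB1 had -0.25 and -0.41, and MKI67 had -0.05 (-0.12 to 0.02). The part of cell cycle phase in these lists was not tested.

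Among 14 origin firing factors 10 had ratios below 0 (50.7% of all measured genes), with a median of -0.20, and 0 passed the 1.5-fold rule (3.91% of all as lower). TICRR (treslin) had -0.58 (-0.76 to -0.41), DBF4, the activator of the CDC7 kinase, -0.57 (-0.92 to -0.24) and GINS1, a helicase subunit, -0.52 (-0.64 to -0.41). With total-count scaling 3 of the 14 passed that rule as lower, and the share of all genes under that scaling was not computed. That scaling put the median of all measured genes at -0.11. CDC7 itself had 49 counts in siKAT7 and 47 in siControl and a log2 ratio of 0.16 (-0.45 to 0.77).

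Genes that govern the turnover of CDT1, CDC6 and geminin had a median of -0.16, with 9 of 15 below 0 (50.7% of all measured genes). PCNA, the clamp on which CDT1 is ubiquitinated in S phase, was the 1 member past 1.5-fold, at 1502 counts in siKAT7 and 2727 in siControl, a log2 ratio of -0.76 (-0.85 to -0.67). FBXO5 (EMI1), an inhibitor of the anaphase-promoting complex that protects geminin, had -0.54 (-0.75 to -0.33), and DDB1, the adaptor of the CUL4 ligase, -0.44 (-0.49 to -0.39). DTL, the receptor that brings CDT1 to that ligase, had 0.26 (-0.15 to 0.67) and SKP2, a further CDT1 receptor, had -0.24 (-0.47 to -0.0046).

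E2F factors and the kinases of the transition from G1 to S phase had a median of -0.17, with 13 of 17 below 0, against that same 50.7%. The repressor E2F7 and cyclin A2 (CCNA2) were 1.5-fold or more lower, both at -0.61, with intervals of -0.98 to -0.26 and -0.78 to -0.45. E2F5, a factor of the repressive group, was 1.5-fold higher at 0.60 (0.21 to 1.01), on 128.92 expected counts in siKAT7 and 90.74 in siControl, and at 0.50 with total-count scaling it was under that limit. E2F1 had -0.15 (-0.29 to -0.01). The genes of the KAT7 complexes had a median of -0.04, and with KAT7 apart the intervals of the other 9 included 0. GMNC, a relative of geminin that acts in multiciliated cells, was at 0 counts in both libraries, and MCIDAS, another, had 47 counts in siKAT7 and 49 in siControl.

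**Figure D5:**
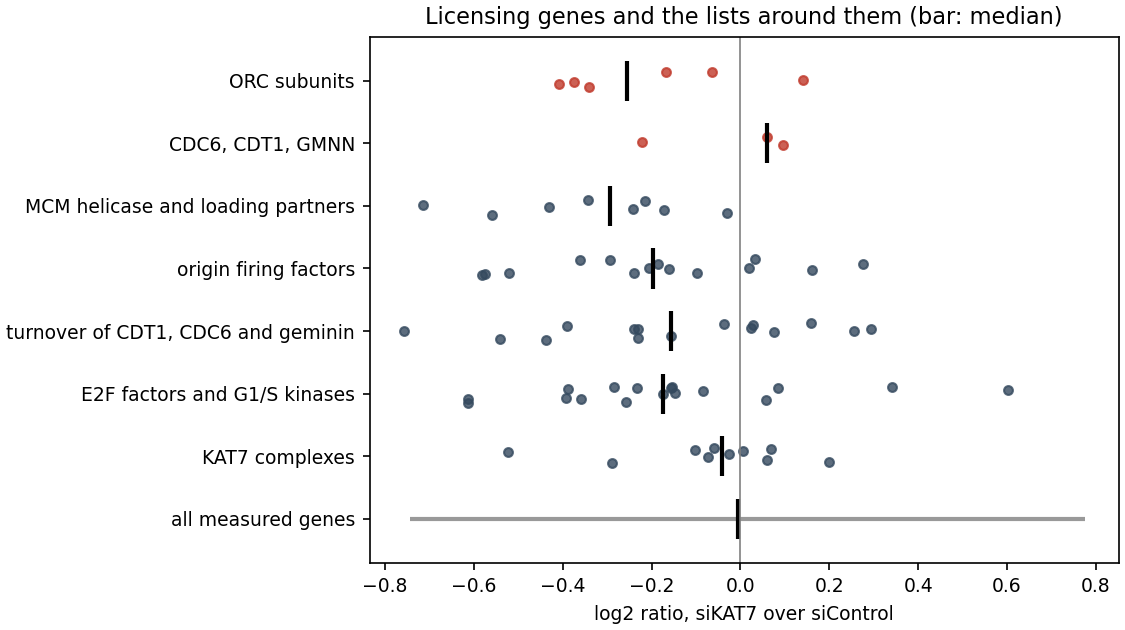
Log2 ratios of siKAT7 over siControl for the ORC subunits, for CDC6, CDT1 and GMNN, and for the measured members of 5 lists; points are genes, black bars are medians and the grey line is the central 95% of all measured genes. The ORC median lies at -0.25, that of the MCM list at -0.29 and that of the firing factors at -0.20; without ORC5 the ORC median is -0.17.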

How the data were processed

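RNA-seq expected counts per gene, deposited by the authors, rest on RSEM 1.3.3 and GRCh38.p13, both named in the submitters' processing notes. Aligner and strand setting were not given in the sources used here. The table repeats both count columns with identical values, and each was used once. Its 331 rows with no gene name held 1.67% of counts in siKAT7 and 1.11% in siControl and were left out. The authors' deposited table gives a fold (ratio), its log2 and p-values from a tool not given in the sources used here. Counts were rounded and scaled by TMM in edgeR 4.0.16 (R 4.3.3), with factors of 0.964 for siKAT7 and 1.04 for siControl. Log2 ratios used a prior count of 0.5. Intervals are exact 95% Clopper-Pearson intervals of the split of a gene's counts between libraries, conditional odds ratio intervals for ratios within a library, and Poisson intervals for levels (scipy 1.17.1). They cover counting error alone and no spread between cultures. Where amplified reads carry no molecular identifier they need not be separate molecules, so the intervals may be too narrow even for counting error. No test of the treatment was possible with 1 library per group. The calculation was run on counts simulated with Poisson error alone, where 95.6% of the intervals of 13017 unchanged genes held the true ratio. The simulation shares the error model of the intervals and has no spread between cultures. It thus checks the arithmetic and not the calls on these libraries. Coordinates and transcript lengths are from GENCODE 29 on GRCh38.

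The 9 genes and the lists were chosen with earlier results of these data known. From each list the text names members past 1.5-fold with an interval excluding 0, and up to 3 with the largest ratios on at least 100 counts whose interval excluded 0. LRWD1, CDC7, DTL, SKP2, E2F1, GMNC and MCIDAS fall outside this rule and were named for their role after their values were seen. Ratios to CDT1, other pairs and the deposited gene length were added after the data were seen. Alternatives were total-count and DESeq2 1.42.0 scaling, a prior count of 5, other thresholds and filters, and the authors' folds.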

Additional observations from a re-analysis of the deposited data

How the results depend on the processing

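The 1.5-fold count of 0 among the 9 genes held under total-count scaling, DESeq2 size factors, a 2-fold limit, a mean of at least 10 CPM and no filter; a fold limit of 5 to 4 gave 1. Under total-count scaling intervals wholly below 0 were found for 4 genes, and wholly above 0 for 0. The median of the 9 genes was -0.17, and -0.27 both with total-count scaling and with the authors' folds; that of the ORC subunits was -0.36 with either. Without ORC5, the gene with the fewest counts, the medians were -0.12 for the others of the 9 and -0.17 for the ORC subunits. With total-count scaling and with the authors' folds the sign turned for CDC6 (-0.048) and CDT1 (-0.010). ORC6 over ORC5 alone was 0.036, against -0.16 over ORC2 to ORC5. Total-count scaling gave 2 MCM genes, 3 firing factors, 2 turnover genes and 1 KAT7 complex gene (KAT7) as 1.5-fold lower, and 0 E2F or kinase genes as higher. DESeq2 size factors gave 1 firing factor as lower. At a mean of at least 10 CPM, 1 E2F or kinase gene was lower and 0 higher. The share of all measured genes past 1.5-fold was not computed for these alternatives, so these counts have no background beside them. In all, 62 of 78 recomputed main values and 46 of 54 values of single genes were counted as kept, but the limits behind these counts were not uniform. With total-count scaling the ORC median counted as moved, at -0.36 against -0.25. The MCM list median counted as kept, at -0.40 against -0.29, and so did ORC1, at 0.03 against 0.14. These counts therefore do not measure stability by a single rule. No replicate could be left out. No paired analysis was possible because each group has 1 library. Depth limits ORC5 most, with 61 counts in siKAT7 and 87 in siControl.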

Other observations

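Of the genes that overlap a licensing gene or start within 1 kb of its start, 5 were measured. RARS2, a mitochondrial arginyl-tRNA synthetase gene that starts 64 bases from ORC3 on the opposite strand, had 142 expected counts in siKAT7 and 217.17 in siControl, a log2 ratio of -0.51 (-0.83 to -0.20), beside -0.34 for ORC3. PRPF38A, a splicing factor gene that starts 105 bases from ORC1, had -0.16 (-0.40 to 0.07), beside 0.14 for ORC1. VPS35, a retromer gene that starts 125 bases from ORC6, had -0.18 (-0.43 to 0.07), beside -0.37 for ORC6. MBD5 and ACVR2A, which overlap the ends of ORC4 by 594 and 430 bases on the opposite strand, had 0.50 (0.13 to 0.88) and 0.60 (0.07 to 1.16), beside -0.06 for ORC4. With no strand setting given in the sources used here, reads in those overlaps cannot be assigned to one strand.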
